A study of Mus musculus with 33 samples.

Results

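The AMPA receptor is the glutamate receptor that carries most fast excitatory transmission in the cortex. The genes described here are its 4 pore-forming subunits, *Gria1*, *Gria2*, *Gria3* and *Gria4*, and 5 of its auxiliary proteins, the transmembrane AMPA receptor regulatory proteins (TARPs) *Cacng2*, *Cacng3* and *Cacng8* and the cornichon homologs *Cnih2* and *Cnih3*. They were chosen by gene symbol, and all 9 were found among the 21565 genes of an RNA-seq table of mouse frontal cortex. The table holds 33 libraries, each from the frontal cortex of a male adult mouse on a C57BL/6J background. Wild type (WT) mice slept ad libitum (control sleep, CS, n = 6), were kept awake for 6 hr on a slow treadmill (sleep deprivation, SD, n = 7), or were allowed 2 hr of recovery sleep after a shorter deprivation (RS, n = 7). *Mef2c* f/f mice carry loxP sites around an exon of *Mef2c* that encodes part of its DNA-binding domain, and were sampled in CS (n = 4) and after 6 hr of SD (n = 3). Mef2c-cKO mice carry the same floxed alleles and a *Camk2a* promoter-driven Cre, which is active in postnatal excitatory neurons of the forebrain, and were also sampled in CS (n = 3) and SD (n = 3). *Mef2c* encodes an activity-dependent transcription factor. By the study's methods, some offspring of the Cre line had recombination in the germline, and other cell types of those mice then carry 1 recombined allele. Its heat map of Mef2c-cKO samples sets 1 CS sample without such recombination beside 2 samples that had it. Mice without floxed alleles that express only Cre were not analysed here.

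AMPA receptors are tetramers of the pore-forming subunits. The subunit mixture sets calcium permeability and conductance, and receptors are inserted into and removed from synapses as synaptic strength changes. TARPs bind the receptor along its life, carry it to the cell surface, anchor it to the postsynaptic scaffold and slow its deactivation. Cornichons help export it from the endoplasmic reticulum and also slow its kinetics. Sleep and waking are known to go with changes in the amount of AMPA receptors at cortical synapses, which is a matter of protein and not only of mRNA. The comparisons ask how the mRNA levels of these genes stood in each sleep state, and whether loss of *Mef2c* function changed those levels or their response to sleep loss.

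Values are given as rescaled CPM, which are the deposited CPM (reads of a gene scaled to the library total) divided by a scaling factor for each library. Depth, in units of 1000000 reads, was 44.4 to 249 in WT libraries and 18.9 to 94.7 in *Mef2c* libraries, and the fewest reads behind any value of the 9 genes were 704. The gene-level *Mef2c* signal was not lower in the Mef2c-cKO libraries, with a log2 fold change from *Mef2c* f/f of 0.27 in CS (limma adjusted p = 0.383) and 0.05 in SD (adjusted p = 0.820). Reads summed over the whole gene do not resolve the floxed exon, so this does not check the deletion. WT CS replicate 2 stood apart from the other WT CS libraries, as given below with each result that rests on it. In the Mef2c-cKO CS group, replicate 8 had 1368 rescaled CPM of the astrocyte gene *Gfap*, against 21.1 to 364 in the other 32 libraries. The 8 excitatory neuron markers examined were detected in every library. In bulk tissue, fewer cells of a type and less RNA per cell cannot be told apart.

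A gene is called changed where the p-value of limma, adjusted by Benjamini-Hochberg over all genes tested, is 0.05 or less and the log2 fold change is 0.3 or more in either direction. In WT mice, the levels of 6 of the 9 genes changed from CS to SD. *Gria2*, *Gria3*, *Gria4* and *Cacng3* fell and *Cacng8* and *Cnih2* rose, while *Gria1*, *Cacng2* and *Cnih3* did not pass the test. This comparison called 45.1% of the 12913 genes tested, 24.6% higher and 20.5% lower, so a large share of calls is its background. The median log2 fold change of the 9 genes was -0.23, against 0.04 over all genes. Across all genes this comparison followed GC content, and after correction for GC content and length (described below) *Gria2* and *Cnih2* were no longer called and *Cacng8* was called lower instead of higher. From *Mef2c* f/f to Mef2c-cKO, *Cacng2* and *Cacng3* fell and *Cnih2* rose in both sleep states, and *Gria1* rose in SD, where 7.67% of genes tested were called in CS and 15.1% in SD.

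The pore-forming subunits share a short stretch of coding sequence in the pore loop that holds the Q/R site. At this site the *Gria2* transcript is edited by ADARB1 from a glutamine codon to an arginine codon, which makes the receptor nearly impermeable to calcium. The gene table counts reads per gene and says nothing of editing. The stretch is shown because it holds the site by which *Gria2* differs in function from the other subunits. Each line gives 21 codons of the reference (GRCm38 genome, GENCODE M21 annotation) from 2 neighbouring exons joined in the coding frame, with the Q/R codon in capitals.
Gria1: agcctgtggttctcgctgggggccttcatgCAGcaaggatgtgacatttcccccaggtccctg
Gria2: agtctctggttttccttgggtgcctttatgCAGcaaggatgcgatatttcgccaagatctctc
Gria3: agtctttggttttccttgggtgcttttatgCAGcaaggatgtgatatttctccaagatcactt
Gria4: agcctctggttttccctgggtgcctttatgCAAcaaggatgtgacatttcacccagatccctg
The *Gria1* stretch spans exons 11 and 12 at chr11:57243064-57283516 on the plus strand, with the marked codon at codon 600. The *Gria2* stretch spans exons 11 and 12 at chr3:80702650-80706943 on the minus strand, with the marked codon at codon 607. The *Gria3* stretch spans exons 11 and 12 at chrX:41610235-41620803 on the plus strand, and the *Gria4* stretch exons 12 and 13 at chr9:4462098-4464169 on the minus strand, with marked codons 612 and 608. In the genome all 4 marked codons are glutamine codons, CAG in *Gria1*, *Gria2* and *Gria3* and CAA in *Gria4*. *Gria2* shared 57 of 63 bases with *Gria3* (90.5%), and the other pairs shared 77.8% to 87.3%.

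*Gria2* was the subunit with the highest count in every group, and also the one with the longest exonic sequence, at 15548 bases. In WT CS its rescaled CPM went from a lowest of 1333 through a median of 1520 to a highest of 2434 in replicate 2. In WT SD the lowest was 911, the median 1075 and the highest 1152, so the groups did not overlap. The mean was 1664 ± 406 (SD, n = 6) in CS and 1047 ± 94.4 (SD, n = 7) in SD. On the log2 scale *Gria2* fell by 0.64 (SE 0.13, limma adjusted p = 0.00245), and without WT CS replicate 2 by 0.53 (adjusted p = 0.00111). With the GC and length correction it was not called, at -0.01 (adjusted p = 0.898). Of the 11 alternatives that keep all libraries (described below), 7 called it. In WT RS the libraries went from 931 through 1150 to 1641, between those of the other groups and overlapping both.

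*Gria3*, an X-linked subunit (chrX:41400854-41678601), went from 711 through a median of 829 to 1354 in WT CS, and from 425 through 480 to 600 in WT SD. The CS and SD libraries did not overlap, and replicate 2 was the highest CS library here too. *Gria3* fell by 0.79 on the log2 scale from CS to SD (SE 0.14, adjusted p = 0.00134), and by 0.66 without WT CS replicate 2 (adjusted p = 0.000537). In WT RS it went from 480 through 587 to 880.

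*Gria4*, a subunit that is prominent in interneurons and during development, fell from WT CS to SD with and without the GC and length correction. Its WT CS libraries went from 845 through a median of 982 to 1747, and its WT SD libraries from 476 through 569 to 624, with no overlap. The fall from CS to SD was by 0.93 on the log2 scale (SE 0.15, adjusted p = 0.000768), and by 0.79 without WT CS replicate 2 (adjusted p = 0.000174). In WT RS *Gria4* spread widely, from 438 through 621 to 1166, and the highest RS library, replicate 1, lay inside the CS range.

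*Gria1*, the subunit whose insertion is best known from synaptic potentiation, did not pass the test in WT mice. It went from 696 through 771 to 1012 in CS, from 468 through 746 to 842 in SD and from 535 through 734 to 882 in RS. These ranges overlapped throughout. The log2 fold change from CS to SD was -0.18 (SE 0.13, 95% interval -0.47 to 0.11, adjusted p = 0.264), and 0.09 with CPM as deposited. *Gria2*, *Gria3* and *Gria4* were the 3 members whose WT CS and SD libraries did not overlap, and 15.1% of all genes tested had groups that did not overlap in this comparison.

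**Figure D1:**
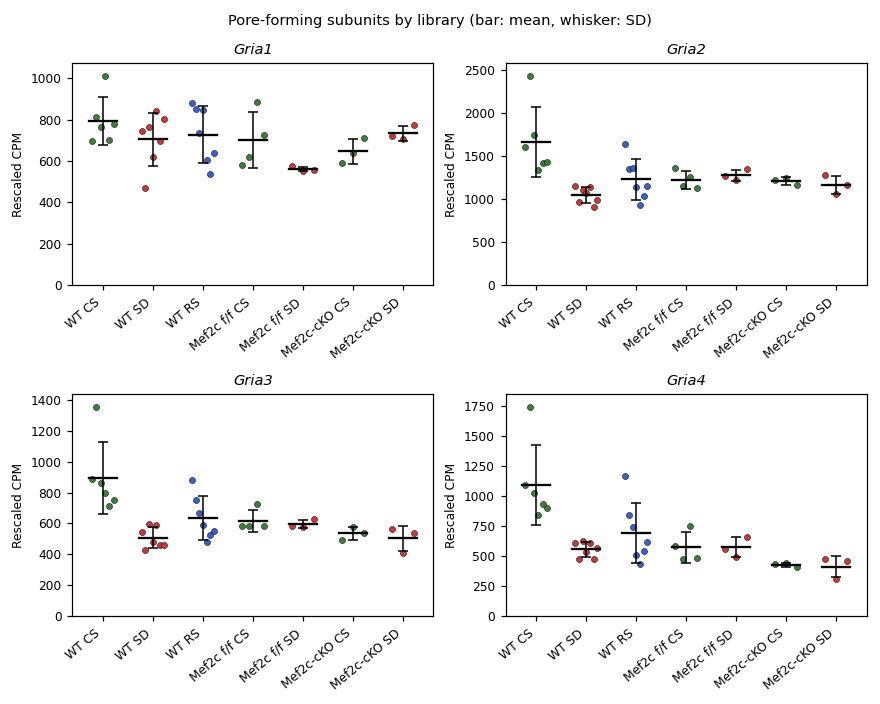
Rescaled CPM (y axis, from 0) of the 4 pore-forming subunits in each library (points), by genotype and sleep group (x axis), with the group mean (bar) and SD (whisker). The WT SD points of *Gria2*, *Gria3* and *Gria4* lie below all WT CS points, while the *Mef2c* f/f and Mef2c-cKO groups lie close together for *Gria2*.

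In the *Mef2c* f/f mice the same subunits stood at nearly the same level in both sleep states. *Gria2* was 1362, 1153, 1251 and 1132 in the CS libraries (replicates 1 to 4) and 1270, 1218 and 1344 in the SD libraries (replicates 1 to 3), with a log2 fold change of 0.06 (SE 0.10). *Gria3* was 581, 583, 723 and 583 in CS and 584, 576 and 627 in SD. *Gria4* was 582, 479, 753 and 483 in CS and 564, 496 and 662 in SD, with a log2 fold change of 0.01 (SE 0.16, 95% interval -0.35 to 0.38). For each of these 3 genes the SD libraries lay inside or across the range of the CS libraries. *Gria1* was 579, 620, 883 and 723 in CS and 575, 552 and 556 in SD, the 3 SD libraries all lying below the 4 CS libraries. Its log2 fold change was -0.30 (SE 0.13, adjusted p = 0.293).

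None of the 9 genes was called from CS to SD in the *Mef2c* f/f mice by limma, edgeR or DESeq2, where limma called 0.0403% of all genes tested. At an unadjusted p under 0.05, 3 of the 9 members passed (*Gria1*, *Cacng3* and *Cnih3*), against 17% of all genes. The groups of libraries did not overlap for 3 members, *Gria1*, *Cacng2* and *Cnih2*, and for 17.4% of all genes. In the Mef2c-cKO mice no member was called by any of the 3 tools and none had an unadjusted p under 0.05, against shares of all genes of 0.0234% called and 3.05% with such a p. With 3 libraries a group, the 95% intervals of the 9 members in Mef2c-cKO reached from -0.48 to 0.46 on the log2 scale, and how their responses compare with those of WT mice was not tested directly.

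The response to SD was compared between *Mef2c* f/f and WT mice by an interaction term. The difference in log2 response (*Mef2c* f/f minus WT) was 0.71 for *Gria2* (SE 0.19, adjusted p = 0.0289), 0.74 for *Gria3* (SE 0.21, adjusted p = 0.0323) and 0.95 for *Gria4* (SE 0.25, adjusted p = 0.0274). These 3 of the 9 members were called, all of them higher, and 15.1% of all genes tested were called, 9.35% higher and 5.78% lower. After correction for GC content and length (described below) no member was called, against 1.85% of all genes, with an unadjusted p under 0.05 for 4 members. No member was called either without *Mef2c* f/f CS replicate 2, CS replicate 4, SD replicate 1 or SD replicate 3, where calls over all genes fell from 1983 to between 23 and 274. Over all 20 libraries left out in turn, the difference was 0.59 to 0.76 for *Gria2*, 0.61 to 0.82 for *Gria3* and 0.80 to 1.08 for *Gria4*. WT and *Mef2c* libraries also differed in depth and in the share of counts listed, so genotype and whatever else separates these sets cannot be told apart. For the Mef2c-cKO mice against *Mef2c* f/f mice, no interaction was called by limma, edgeR or DESeq2, where limma called 0.00778% of all genes. The interaction of *Gria1* was 0.49 (SE 0.18, unadjusted p = 0.0187, adjusted p = 0.616), the only one of the 9 with an unadjusted p under 0.05, against 7.81% of all genes.

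The Mef2c-cKO libraries were then compared with the *Mef2c* f/f libraries of the same sleep state. *Gria1* was 588, 639 and 712 in Mef2c-cKO CS (replicates 5, 7 and 8), within the range of *Mef2c* f/f CS, and the log2 fold change was -0.10 (SE 0.15). In Mef2c-cKO SD it was 719, 708 and 775 (replicates 5, 6 and 7), all above the 552 to 575 of *Mef2c* f/f SD. *Gria1* rose by 0.39 on the log2 scale in SD (SE 0.07, adjusted p = 0.00940). It was not called when all groups of *Mef2c* libraries shared 1 fit, which pools their spread.

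*Gria4* was 433, 440 and 413 in Mef2c-cKO CS, below all 4 *Mef2c* f/f CS libraries, and 476, 311 and 457 in Mef2c-cKO SD, below all 3 *Mef2c* f/f SD libraries. The log2 fold changes were -0.40 (SE 0.16, adjusted p = 0.141) in CS and -0.48 (SE 0.17, adjusted p = 0.0842) in SD, neither of which passed. Of the 9 alternatives that keep all libraries (described below), 1 called *Gria4* in CS and 1 in SD. With each library left out in turn it was never called, at -0.48 to -0.26 in CS and -0.59 to -0.29 in SD. *Gria3* had the same arrangement of libraries, at 492, 576 and 537.5 in Mef2c-cKO CS and 564, 412 and 539 in SD, with log2 fold changes of -0.20 and -0.25 that did not pass (adjusted p = 0.272 and 0.174). *Gria2* was 1217, 1248 and 1160 in Mef2c-cKO CS and 1274, 1065 and 1161 in SD, overlapping *Mef2c* f/f in both states, with log2 fold changes of -0.02 (SE 0.11) and -0.13 (SE 0.09).

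*Cacng2* encodes stargazin, the TARP first found through the ataxia of the stargazer mouse (chr15:77991748-78120028). It was 81.2, 75.3, 74.0 and 80.1 rescaled CPM in *Mef2c* f/f CS and 56.2, 46.2 and 48.2 in Mef2c-cKO CS. In SD it was 89.9, 88.2 and 82.4 in *Mef2c* f/f and 49.4, 52.8 and 52.5 in Mef2c-cKO. The genotypes did not overlap in either state, and the Mef2c-cKO libraries of both states lay between 46.2 and 56.2. *Cacng2* fell by 0.63 on the log2 scale in CS (SE 0.09, adjusted p = 0.00793) and by 0.75 in SD (SE 0.06, adjusted p = 0.000425). It was called in CS without each of the 7 libraries in turn, and in SD without each of the 6. In WT mice *Cacng2* went from 57.4 through 85.0 to 105 in CS, from 56.1 through 64.8 to 87.6 in SD and from 55.2 through 68.9 to 96.8 in RS, ranges that overlapped. Its WT log2 fold change from CS to SD was -0.23 (SE 0.15, adjusted p = 0.208), and 0.05 with CPM as deposited.

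*Cacng3*, a TARP of the same subgroup as *Cacng2* that is expressed mainly in forebrain (chr7:122670492-122769393), was lower both after SD in WT mice and in Mef2c-cKO mice. In WT CS it went from 111 through 128 to 150, in WT SD from 68.8 through 79.6 to 111 and in WT RS from 73.0 through 91.0 to 121. Only the highest SD library, replicate 6, reached the lowest CS library. *Cacng3* fell by 0.55 on the log2 scale from WT CS to SD (SE 0.12, adjusted p = 0.00364), by the same amount without WT CS replicate 2, and by 0.27 with CPM as deposited (adjusted p = 0.0472), which is under the fold threshold. From CS to RS it fell by 0.45 (SE 0.12, adjusted p = 0.0362). In *Mef2c* f/f it was 98.7, 111, 129 and 119 in CS and 98.5, 101 and 89.9 in SD. In Mef2c-cKO it was 79.6, 67.9 and 57.2 in CS and 66.5, 52.4 and 65.8 in SD, below every *Mef2c* f/f library of the same state. The genotype difference was a fall by 0.75 in CS (SE 0.13, adjusted p = 0.0152) and by 0.65 in SD (SE 0.10, adjusted p = 0.00509).

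*Cacng8*, the TARP that is most abundant in the hippocampus (chr7:3390683-3415648), had the transcript with the highest GC content of the 9. In WT CS it went from 22.3 in replicate 2 through 34.1 to 42.4, in WT SD from 36.3 through 42.5 to 47.9 and in WT RS from 36.0 through 38.7 to 51.9. The upper CS libraries lay inside the SD range. *Cacng8* rose by 0.36 on the log2 scale from CS to SD (SE 0.14, adjusted p = 0.0429), but with the GC and length correction it fell by 0.36 (adjusted p = 0.0258). Of the 11 alternatives that keep all libraries, 5 called it, 2 of these lower. Without correction and without WT CS replicate 2 the value was 0.25 (adjusted p = 0.0891), and in all it was called without only 4 of the 13 libraries left out in turn, WT CS replicates 4, 5 and 6 and WT SD replicate 1. In *Mef2c* f/f it was 48.1, 47.0, 48.5 and 44.5 in CS and 48.0, 45.4 and 43.4 in SD, and in Mef2c-cKO 42.8, 44.8 and 49.1 in CS and 41.8, 40.6 and 45.7 in SD. The genotypes overlapped in both states, with log2 fold changes of -0.05 (SE 0.08) and -0.10 (SE 0.07).

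*Cnih2* was called higher in 4 comparisons, of which only that of *Mef2c* f/f to Mef2c-cKO in CS was called with the GC and length correction as well. This cornichon is a stable partner of cortical and hippocampal AMPA receptors (chr19:5092868-5098521). In WT CS it went from 13.1 in replicate 2 through 33.7 to 40.7, in WT SD from 39.0 through 57.1 to 70.4 and in WT RS from 45.7 through 51.9 to 76.5. The lowest 2 SD libraries lay inside the CS range, and no RS library did. *Cnih2* rose by 0.90 on the log2 scale from CS to SD (SE 0.24, adjusted p = 0.00884) and by 0.67 without WT CS replicate 2 (adjusted p = 0.00798). From CS to RS it rose by 0.87 (SE 0.23, adjusted p = 0.0351). With the correction the log2 fold changes were 0.20 (adjusted p = 0.175) and 0.28 (adjusted p = 0.117). In *Mef2c* f/f it was 32.8, 33.4, 33.6 and 36.0 in CS and 36.1, 42.5 and 36.7 in SD, with no overlap but a log2 fold change of 0.17 (SE 0.08, adjusted p = 0.324). In Mef2c-cKO it was 41.9, 54.5 and 52.5 in CS and 52.5, 51.4 and 51.4 in SD, above every *Mef2c* f/f library of the same state. *Cnih2* rose from *Mef2c* f/f to Mef2c-cKO by 0.53 in CS (SE 0.11, adjusted p = 0.0229) and by 0.43 in SD (SE 0.08, adjusted p = 0.00956).

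*Cnih3*, the paralog of *Cnih2* with the same coding length of 160 codons (chr1:181352628-181460641), had the smallest log2 fold change of the 9 from WT CS to SD. It went from 50.9 in replicate 2 through 66.2 to 72.0 in CS, from 55.3 through 60.4 to 65.5 in SD and from 51.5 through 59.9 to 65.2 in RS. The wide overlap rests on replicate 2, since the other CS libraries went from 65.2 to 72.0. Only the highest SD library and the highest RS library reached these. The WT log2 fold change from CS to SD was -0.10 (SE 0.09, 95% interval -0.29 to 0.08, adjusted p = 0.316), and 0.17 with CPM as deposited. Without WT CS replicate 2 it was -0.17. *Cnih3* was not called without any of the 13 libraries in turn (lowest limma adjusted p = 0.0508). In *Mef2c* f/f it was 62.8, 73.8, 75.2 and 86.7 in CS and 60.5, 65.1 and 63.02 in SD, and in Mef2c-cKO 56.0, 72.3 and 93.1 in CS and 67.8, 72.5 and 82.6 in SD. In SD the Mef2c-cKO libraries all lay above the *Mef2c* f/f libraries, with a log2 fold change of 0.23 (SE 0.08, adjusted p = 0.0841). Of the 9 alternatives that keep all libraries, 1 called this difference.

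The 250 bases before the start of both cornichon genes are shown because this pair of paralogs differed in its calls. In the main limma test, without GC correction, *Cnih2* was called in 4 comparisons and *Cnih3* in none. They are RefSeq sequences of GRCm38.p6, each read 5′ to 3′ on the strand of its gene, in lower case throughout since no motif searched for was found. *Cnih2* lies on the minus strand, with the window at chr19:5098522-5098771, and *Cnih3* on the plus strand, with the window at chr1:181352378-181352627.
Cnih2: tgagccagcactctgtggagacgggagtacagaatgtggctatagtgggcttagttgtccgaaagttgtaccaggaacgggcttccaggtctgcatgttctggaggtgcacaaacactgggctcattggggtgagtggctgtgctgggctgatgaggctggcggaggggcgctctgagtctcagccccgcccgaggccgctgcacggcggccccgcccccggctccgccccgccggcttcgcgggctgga
Cnih3: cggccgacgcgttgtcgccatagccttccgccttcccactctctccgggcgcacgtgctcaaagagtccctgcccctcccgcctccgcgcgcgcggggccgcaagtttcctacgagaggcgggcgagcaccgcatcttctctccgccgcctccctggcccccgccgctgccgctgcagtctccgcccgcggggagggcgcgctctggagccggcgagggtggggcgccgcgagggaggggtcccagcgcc
With the 50 bases after the start included, the *Cnih2* promoter had a GC content of 67.3% and 25 CpG dinucleotides, and the *Cnih3* promoter 75.3% and 42. RefSeq windows of 7 of the 9 members were matched (not *Gria1* and *Gria3*). Those of *Cacng2*, *Cacng3* and *Cacng8* lie inside the GENCODE gene, downstream of its annotated start, and so may not be its promoter. None of the 7 held, on either strand, the MEF2 motif, the cAMP response element TGACGTCA, its core TGACG (which the full element contains) or the AP-1 motif TGANTCA. Of 32851 promoters of the same length, 3.19% held the MEF2 motif, 1.79% the full element, 20.8% its core and 7.81% the AP-1 motif. The absence of these letters from a window near the start says nothing of binding elsewhere.

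**Figure D2:**
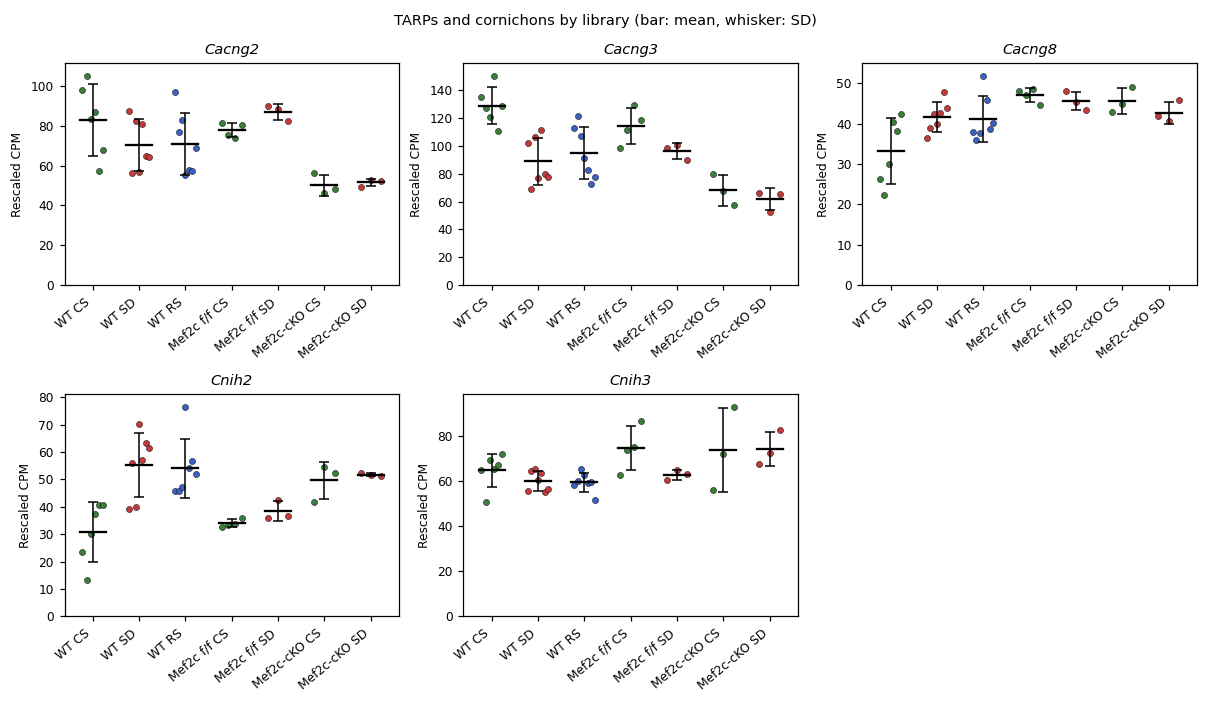
Rescaled CPM (y axis, from 0) of the 5 auxiliary proteins in each library (points), by genotype and sleep group (x axis), with the group mean (bar) and SD (whisker). *Cacng2* and *Cacng3* are lower and *Cnih2* higher in Mef2c-cKO than in *Mef2c* f/f in both sleep states, without overlap.

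Counted over the 9 members, 3 were called from *Mef2c* f/f to Mef2c-cKO in CS, 1 higher and 2 lower, where 3.17% of all genes tested were called higher and 4.5% lower. In SD 4 were called, 2 higher and 2 lower, where 9.1% of all genes were called higher and 5.99% lower. The groups of libraries did not overlap for 5 of 9 members in CS and 7 of 9 in SD, against 26.9% and 40.3% of all genes. After correction for GC content and length, *Cacng2*, *Cacng3* and *Cnih2* were called in CS, where 10.5% of all genes were called, and *Gria1*, *Cacng2* and *Cacng3* in SD, where 13.8% were. *Cnih2* in SD then had a log2 fold change of 0.27 (adjusted p = 0.0277), under the fold threshold. Of the 3 calls in CS, that of *Cacng2* alone was left without Mef2c-cKO CS replicate 7 or without *Mef2c* f/f CS replicate 2. *Cnih2* in CS was not called without Mef2c-cKO CS replicate 8, the library with high *Gfap*, or without *Mef2c* f/f CS replicate 3 either (0.49, adjusted p = 0.0554, without the former), and in SD not without *Mef2c* f/f SD replicate 1 (adjusted p = 0.0531).

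Markers of other cell types moved with genotype in the same libraries. The summed level of the 8 excitatory neuron markers was 1992 to 2197 rescaled CPM in Mef2c-cKO SD, against 2515 to 2666 in *Mef2c* f/f SD, and 4 of the 8 were called lower. The summed level of 5 microglia markers was 181 to 196 in Mef2c-cKO SD against 144 to 151 in *Mef2c* f/f SD, with 4 of 5 called higher. Of the other lists, the calls in SD were 3 higher and 2 lower of 8 inhibitory neuron markers, 2 higher of 7 astrocyte, 1 lower of 6 oligodendrocyte and 1 higher of 5 endothelial and mural markers, and none of 3 oligodendrocyte precursor, 4 meningeal fibroblast and 3 striatal markers. In CS the calls were 1 higher of 8 inhibitory neuron, 1 higher of 7 astrocyte, 2 higher of 6 oligodendrocyte, 1 lower of 5 endothelial and mural and 2 higher of 4 meningeal fibroblast markers. In CS 1 of 8 excitatory markers was called lower and none of the 5 microglia markers was called. The summed microglia level in CS was 159, 189 and 419 in Mef2c-cKO replicates 5, 7 and 8, against 132 to 153 in *Mef2c* f/f, without overlap. The median log2 fold change of the excitatory markers was -0.28 in CS and -0.32 in SD, while those of *Cacng2* and *Cacng3* were -0.63 to -0.75. The part of cell composition in the members' differences was not tested.

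**Figure D3:**
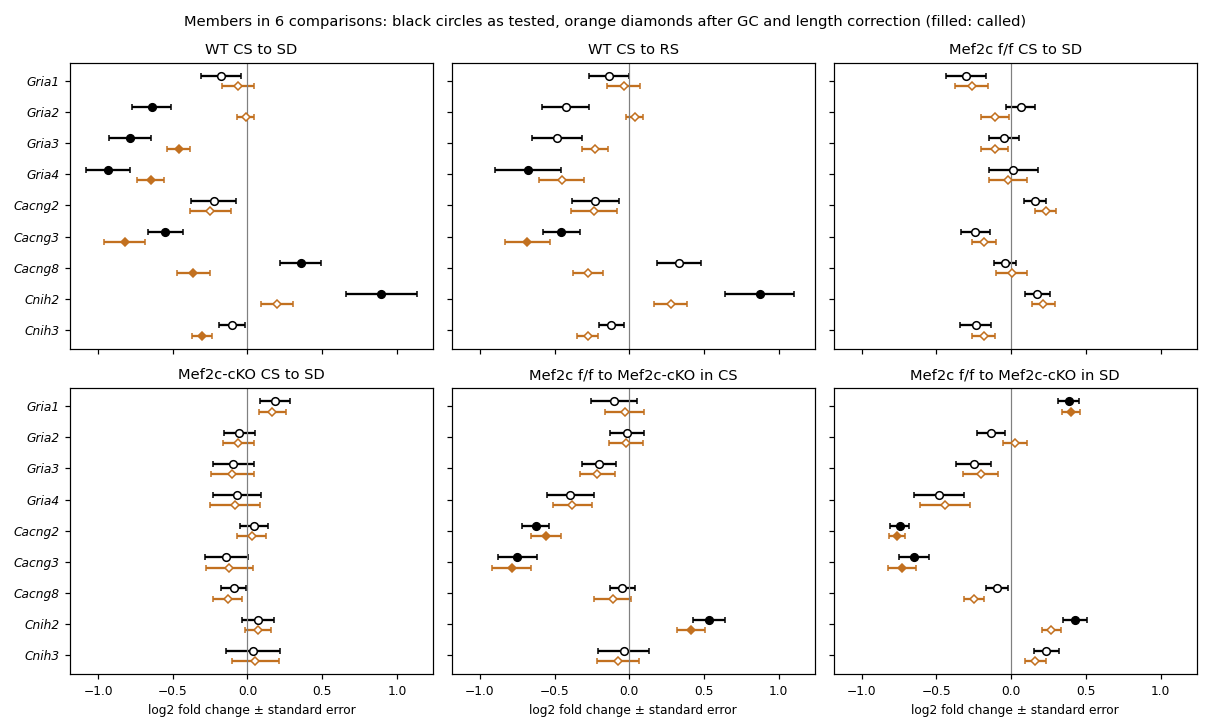
log2 fold change with its standard error (x axis) of the 9 members (y axis) in 6 comparisons, as tested (black circles) and after correction for GC content and length (orange diamonds), with filled symbols for called genes. The correction moves *Gria2* and *Cnih2* towards 0 in WT CS to SD and turns *Cacng8* negative, while *Cacng2* and *Cacng3* from *Mef2c* f/f to Mef2c-cKO move little.

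In the WT libraries log2 fold changes followed GC content across all genes. Over 12443 genes with an annotated transcript, the log2 fold change from CS to SD had a Spearman rho of 0.73 with GC content, a description across genes that share the same libraries. It was 0.72 from CS to RS, -0.32 from CS to SD in *Mef2c* f/f mice, -0.02 in Mef2c-cKO mice, and 0.01 and 0.24 from *Mef2c* f/f to Mef2c-cKO in CS and SD. The members are spread over this range, and their uncorrected changes from WT CS to SD followed its order in part. *Cnih2* and *Cacng8*, with the most GC, rose, and *Gria2*, *Gria3* and *Gria4*, with the least, fell most. Against the order, *Cacng3* fell more than *Gria1*, and *Gria4* more than *Gria2*. *Gria2* had 36.8% GC (percentile 2.6 of genes), *Gria3* 43.0% (19.8) and *Gria4* 44.3% (25.8), whereas *Cnih2* had 62.3% (98.3) and *Cacng8* 65.1% (99.5). *Gria1* at 48.5%, *Cacng2* at 51.2%, *Cnih3* at 53.3% and *Cacng3* at 54.6% lay between them. Windows of 90 coding bases at the extremes show the contrast, the one with the least GC in *Gria2* and the one with the most in *Cacng8*, with G and C in capitals.
Gria2: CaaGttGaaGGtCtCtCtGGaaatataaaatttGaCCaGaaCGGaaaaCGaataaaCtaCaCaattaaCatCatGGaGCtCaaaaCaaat
Cacng8: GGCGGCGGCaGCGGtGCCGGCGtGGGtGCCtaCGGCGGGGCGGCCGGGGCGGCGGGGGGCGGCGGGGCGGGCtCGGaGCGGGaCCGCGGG
The *Gria2* window holds 33.3% GC and lies in exon 8, codons 352 to 381, at chr3:80710302-80710391 on the minus strand. The *Cacng8* window holds 90% GC and lies in exon 6, codons 327 to 356, at chr7:3415312-3415401 on the plus strand (GRCm38, GENCODE M21).

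A correction that removes from each library the smooth trend of log2 level on GC content and length was applied. With it, 20.3% of all genes were called from WT CS to SD, and 5 of the 9 members. *Gria3* fell by 0.46 (adjusted p = 0.00103), *Gria4* by 0.65 (adjusted p = 0.000398) and *Cacng3* by 0.82 (adjusted p = 0.00108). *Cnih3* fell by 0.30 (adjusted p = 0.00617) and *Cacng8*, which rose without the correction, fell by 0.36 (adjusted p = 0.0258). *Gria2* and *Cnih2* were not called, as given above. Of the members, *Gria3*, *Gria4* and *Cacng3* were lower with and without the correction. The trend was also present between libraries of a group, with a rho of log2 level against GC content, each library relative to all, of -0.75 in WT CS replicate 2 to -0.09 in replicate 6, and of 0.02 to 0.78 in WT SD. Whether the trend arose in the tissue or in the handling of the libraries was not tested. Marker genes of the meninges and the striatum also moved between these groups. The summed level of 4 meningeal fibroblast markers was 8.38 to 34.1 in WT CS and 37.0 to 62.8 in WT SD, with 2 of 4 called higher. The summed level of 3 striatal markers was 129 to 281 in CS and 218 to 487 in SD, with 2 of 3 called higher. The 8 excitatory neuron markers had a median log2 fold change of 0.05, with 1 called higher and 1 lower, and summed to 1421 to 1952 in CS and 1836 to 2343 in SD. Of the other lists, 2 of 8 inhibitory neuron markers were called higher and 1 lower, 3 of 7 astrocyte and 2 of 3 oligodendrocyte precursor markers higher, and 1 higher and 1 lower each of 6 oligodendrocyte, 5 microglia and 5 endothelial and mural markers. The summed level of the inhibitory neuron markers went from 1425 through 1598 to 2548 in CS and from 1132 through 1348 to 1439 in SD. The list holds *Erbb4*, at 931 to 1843 in CS and 508 to 745 in SD without overlap, and WT CS replicate 2 was the highest in both. The part of these cell types in the members' changes was not tested.

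**Figure D4:**
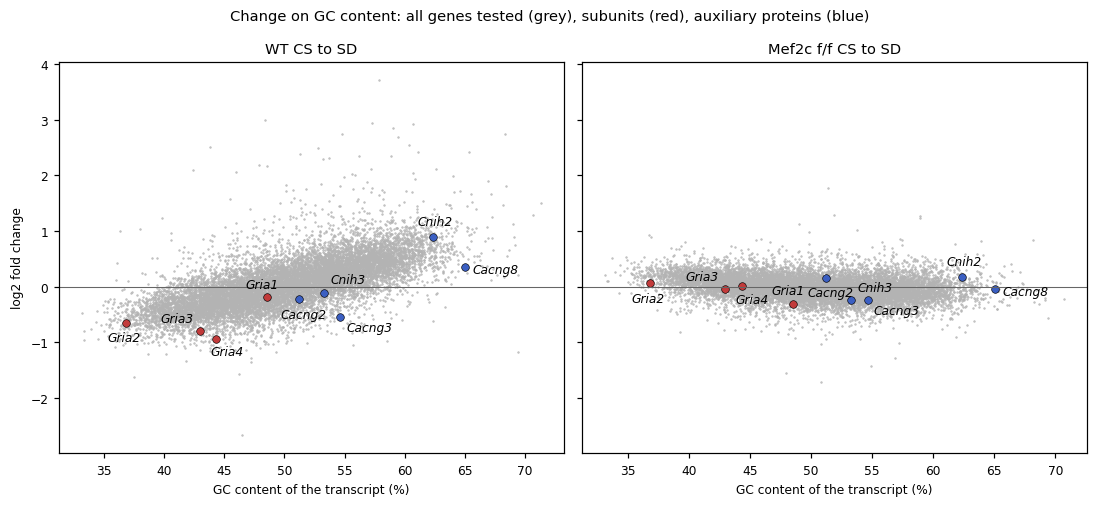
log2 fold change from CS to SD (y axis) against GC content of the transcript in percent (x axis) for all genes tested (grey), the pore-forming subunits (red) and the auxiliary proteins (blue), in WT and *Mef2c* f/f mice. In WT mice the cloud rises with GC content and *Gria2* and *Cnih2* lie within it, while *Gria3*, *Gria4* and *Cacng3* lie near its lower edge.

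The RS means of *Gria2*, *Gria3*, *Gria4* and *Cacng3* lay between their CS and SD means. From WT CS to RS, 3 of 9 were called, *Gria4* and *Cacng3* lower and *Cnih2* higher, where 17.5% of all genes tested were called, 9.28% higher and 8.22% lower. *Gria4* fell by 0.68 (SE 0.22, adjusted p = 0.0474), while *Gria2* at -0.43 (adjusted p = 0.0601) and *Gria3* at -0.49 (adjusted p = 0.0512) just missed the threshold. *Cnih2* was the single member whose CS and RS libraries did not overlap, against 3.72% of all genes. With the GC and length correction *Cacng3* alone was called (fell by 0.68, adjusted p = 0.0283), against 4.95% of all genes. No member was called without WT CS replicate 1, 2 or 3 or without WT RS replicate 3, 4, 5, 6 or 12, and 5 were called without WT RS replicate 1. In the former refits calls over all genes went from 2232 to between 0 and 223. The log2 fold changes over all 13 libraries left out in turn were -0.81 to -0.53 for *Gria4*, -0.52 to -0.40 for *Cacng3* and 0.65 to 0.97 for *Cnih2*. From WT SD to RS no member was called by limma, edgeR or DESeq2, where limma called 0.0232% of all genes. *Gria3* alone had an unadjusted p under 0.05 (log2 fold change 0.30, SE 0.13, unadjusted p = 0.0340), against 5.29% of all genes. Both comparisons with RS share libraries with that of CS and SD.

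The make-up of the subunit pool can be given only per length of transcript. Divided by the exonic length of each gene in kb and expressed as a share of the sum of the 4 subunits, *Gria4* made up 34.1% ± 3.58 in WT CS (SD, n = 6) and *Gria1* 26.8% ± 5.61. In WT SD these shares were 27.3% ± 1.16 and 35.8% ± 3.38 (SD, n = 7). All shares are without the GC and length correction, and *Gria1* has the highest GC content of the 4 subunits (48.5%, against 36.8% to 44.3%). The part of the GC trend in the shares was not tested. *Gria2* stood at 21.2% and 20.9% and *Gria3* at 17.9% and 15.9% in the same groups. In *Mef2c* f/f CS the shares were 33.2% for *Gria1*, 22.8% for *Gria2*, 18.02% for *Gria3* and 25.9% for *Gria4*, and in *Mef2c* f/f SD 28.5%, 25.2%, 18.5% and 27.8%. In Mef2c-cKO SD *Gria1* made up 38.9% ± 3.33 and *Gria4* 20.8% ± 2.59 (SD, n = 3). The order of the subunits within a group depends on the length used and is no statement on protein, since *Gria2* and *Gria3* have long and variable exonic sequences outside the coding part. Per kb of exon, WT CS levels were 173 ± 52.8 for *Gria4*, 131 ± 19.2 for *Gria1*, 107 ± 26.1 for *Gria2* and 90.7 ± 23.9 for *Gria3* in rescaled CPM per kb, and neighbours in that order differed by less than the larger of their SDs. These SDs are over libraries and do not measure the spread of a difference within a library. *Gria2* lay above *Gria3* in every WT CS library, *Gria4* above *Gria1* in all but replicate 4, and *Gria1* above *Gria2* in all but replicate 2. The auxiliary proteins were lower, at 46.5 ± 4.81 for *Cacng3*, 23.6 ± 2.68 for *Cnih3*, 22.6 ± 8.03 for *Cnih2*, 15.1 ± 3.26 for *Cacng2* and 14.2 ± 3.50 for *Cacng8*. Of these, *Cnih3* and *Cnih2* did not differ beyond their spread, and neither did *Cacng2* and *Cacng8*.

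**Figure D5:**
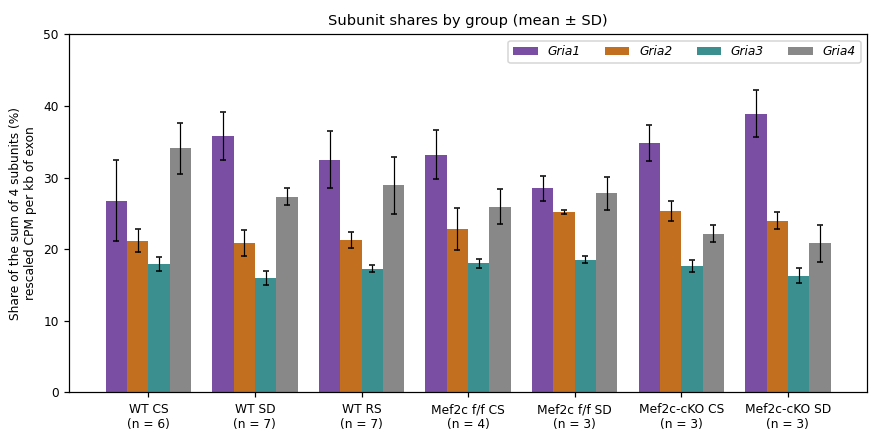
Share of each pore-forming subunit in the sum of the 4 in rescaled CPM per kb of exon (y axis, percent, from 0), by genotype and sleep group (x axis), as mean and SD over libraries. *Gria4* has the highest mean share in WT CS and *Gria1* in every other group.

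Within groups, *Gria2*, *Gria3* and *Gria4* varied together, with a Pearson r of 0.89 to 0.92 between them over the 33 libraries, each log2 level being taken as its deviation from the group mean, while *Gria1* had r of 0.30 with *Gria2*. *Cacng8* and *Cnih2* had r of 0.82 with each other, and *Cnih2* had r of -0.70 with *Gria2* and -0.75 with *Cacng2*. These are descriptions over libraries that share the GC trend. Among 11569 other genes expressed in all libraries, the genes most like each subunit by the same measure were *Ncam1* (0.95), *Unc79* (0.93) and *Fyn* (0.92) for *Gria1*, and *Zfp945* (0.97), *Top2b* (0.96) and *Chd1* (0.96) for *Gria2*. For *Gria3* they were *Jakmip2* (0.97), *Syt1* (0.96) and *Tanc2* (0.95), and for *Gria4* *Ncam2* (0.96), *Kcnj3* (0.96) and *Lcorl* (0.96).

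A list of 34 other genes of AMPA receptor biology was read in the same way. From WT CS to SD 16 of the 33 tested were called, 7 higher and 9 lower, a share near the 45.1% of all genes, and their median log2 fold change was 0.03. The WT values of this list are without the GC and length correction, although this comparison followed GC content across all genes. The part of that trend in them is not given here. Among other auxiliary proteins, *Shisa8* rose by 1.40 (SE 0.29, with as few as 21 reads in a WT CS library) and the TARPs *Cacng5* and *Cacng7* by 0.54 and 0.39, while *Shisa6*, *Shisa9* and *Syndig1*, a synapse differentiation factor, fell by 0.53, 0.55 and 0.63. Of the genes that assemble the receptor in the endoplasmic reticulum, *Frrs1l* fell by 0.30, *Sacm1l* by 0.37 and *Cpt1c* rose by 0.52. Of the scaffolds, *Dlg4*, which encodes PSD-95 and binds TARPs, rose by 0.41, and *Dlg1* and *Grip1*, which bind subunit tails, fell by 0.48 and 0.59. The secreted pentraxins *Nptx1* and *Nptx2*, which cluster AMPA receptors, rose by 0.41 and 0.53, and *Olfm3* fell by 0.74. *Adarb1*, the enzyme that edits the Q/R site of *Gria2*, had a log2 fold change of -0.0050 (SE 0.08, adjusted p = 0.963) and is named here for its role after its values were seen. *Adarb2*, a related protein without known editing activity, fell by 0.62. In the *Mef2c* f/f and Mef2c-cKO mice none of these genes was called from CS to SD.

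From *Mef2c* f/f to Mef2c-cKO, 3 of the 34 other genes were called in CS, all lower, where 7.67% of all genes were called, and 9 in SD, 4 higher and 5 lower, where 15.1% were. The count in CS is near the share over all genes. *Gsg1l*, an auxiliary subunit of the receptor, fell by 0.65 in CS and 0.34 in SD. *Abhd6*, a hydrolase that binds subunits and limits their delivery, fell by 0.37 and 0.41. *Olfm2* fell by 0.63 and 0.59. In SD the TARP *Cacng5* rose by 2.27 (SE 0.13, adjusted p = 4.43e-05), *Shisa8* by 2.25 (with as few as 6 reads in a *Mef2c* f/f SD library), *Adarb2* by 0.61 and *Shisa6* by 0.45, while *Akap5* and *Dlg1* fell by 0.38 and 0.37. *Cacng5* and the members *Cacng2* and *Cacng3* changed in opposite directions in the same libraries.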

How the data were processed

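Frontal cortex RNA of 33 mice was sequenced by the authors from stranded poly(A) libraries. The authors used Trimmomatic for trimming, STAR for alignment to mm10, HTSeq for counting of reads that mapped to 1 place, and edgeR for CPM, the unit of the deposited table. The annotation release they used is not given in the sources used here, and the build is named in the submitters' processing notes. The deposited CPM were whole multiples of 1 read for 100% of 711645 values (within 0.01), which gave the reads per library.

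Each library was rescaled by its median ratio to the geometric means of 11570 genes, and log2 was taken after adding 0.5. In R 4.3.3, limma 3.58.1 (trend) was fitted to the compared groups alone, keeping genes that reached a CPM of 1 in every replicate of 1 or more groups. No fold threshold was used for interactions. GC content and length came from the longest coding transcript of each gene in GENCODE M21, with 90.3% of symbols matched, and were removed from each library by splines of 5 and 4 degrees of freedom. The alternatives tried were other pseudocounts (0.1 and 1), no rescaling, quantile normalization, no filter on low values, the GC and length correction, edgeR 4.0.16 and DESeq2 1.42.0 on the recovered reads, all groups in 1 fit, each library left out, and a replicate block with and without the correction. Scripts were tested on simulated data. Replicates are separate mice of a group, and 72 pairs of replicates all differed by more than sampling noise (chi-square per degree of freedom 12.2 to 537). Members, lists, tests and the genes named (the members, the called genes of the list of other AMPA receptor genes, *Adarb1*, the markers and the 3 genes most like each subunit) were chosen with earlier results of these data known.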

Additional observations from a re-analysis of the deposited data

Results flagged for a closer look

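In groups of 4 to 10 libraries, the highest or lowest library was set against its neighbours by Dixon's ratio at the 95% level. Of 36 groups of the 9 genes tested, 6 held such a library, where chance gives about 5%. *Gria1* was 1012 rescaled CPM in WT CS replicate 4, where the next library was 810. *Gria3* was 1354 in WT CS replicate 2 (next 887) and 722.9 in *Mef2c* f/f CS replicate 3 (next 583). *Gria4* was 1747 in WT CS replicate 2 (next 1098). *Cnih2* was 76.5 in WT RS replicate 4 (next 56.7), and *Cnih3* was 50.9 in WT CS replicate 2 (next 65.2). Of these 6, 3 are in WT CS replicate 2.

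The response to sleep deprivation differed between *Mef2c* f/f and WT mice for 3 genes by an interaction term in limma. The difference in log2 response was 0.71 for *Gria2*, 0.74 for *Gria3* and 0.95 for *Gria4*. For each of them the WT mice fell and the *Mef2c* f/f mice had log2 fold changes of 0.06, -0.05 and 0.01. With the GC and length correction none of the 3 was called (-0.10, 0.35 and 0.63). WT and *Mef2c* libraries also differed in depth and in the share of counts listed, so genotype and library set cannot be told apart.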

How the results depend on the processing

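Over 1692 recalculations of single genes under the alternatives, 1493 kept direction and side of the threshold, 87 lost a call, 17 gained one, 3 reversed and 92 changed sign without a call in either setting. The reversals were *Cacng8* from WT CS to SD, at -0.36 with the GC and length correction and -0.41 with it and a replicate block, and the interaction of *Gria2* (*Mef2c* f/f minus WT), at -0.10 with the correction. The number of members called from WT CS to SD was 6. It was 5 with CPM as deposited, without a filter on low values, with the correction, with edgeR or with DESeq2, and 4 with quantile normalization. It was 0 with the replicate block (6 at an unadjusted p under 0.05, adjusted p of 0.0511 to 0.0933) and 3 with block and correction. From WT CS to RS it was 3, and 0 without a filter on low values (6 at an unadjusted p under 0.05), 1 with the correction, 5 with DESeq2, and 6 with all groups in 1 fit or with the block. It was 2 with CPM as deposited, quantile normalization, edgeR, or block and correction. For the interaction of *Mef2c* f/f minus WT it was 3, and 2 without a filter, 1 with quantile normalization and 0 with the correction. From *Mef2c* f/f to Mef2c-cKO in CS it was 3, and 4 with DESeq2. In SD it was 4, and 5 with CPM as deposited or DESeq2 and 3 with the correction or all groups in 1 fit. With each library left out in turn the counts went from 5 to 6 for WT CS to SD, 0 to 5 for WT CS to RS, 1 to 3 and 3 to 4 for *Mef2c* f/f to Mef2c-cKO in CS and SD, 0 to 3 for the interaction of *Mef2c* f/f minus WT, and stayed at 0 elsewhere. Whether same-numbered replicates were paired cannot be settled from so few pairs. Their deviations correlated over 0.1 in 3 of 5 pairs for WT CS and SD (-0.30 to 0.65) and 4 of 6 for CS and RS (0.05 to 0.66). The same held in 2 of 5 for SD and RS, 2 of 3 in *Mef2c* f/f and 1 of 2 in Mef2c-cKO. A library matched its own number best in 1, 2, 1, 2 and 2 of these pairs, in the same order.

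Counts over all genes moved by more than 1.5 times as follows. With each library left out in turn they went from 0 to 3740 for WT CS to RS (0 in 5 cases), 0 to 9 for WT SD to RS, 0 to 590 for *Mef2c* f/f CS to SD, 1 to 3 for Mef2c-cKO CS to SD, 171 to 875 and 822 to 2447 for *Mef2c* f/f to Mef2c-cKO in CS and SD, and 23 to 3300 for the interaction of *Mef2c* f/f minus WT. From WT CS to SD, 5826 genes were called, 2527 with the correction, 287 with the block and 1033 with both. From WT CS to RS, 2232 were called, 385 without a filter, 608 with the correction, 3420 with DESeq2, 4055 with all groups in 1 fit, 4279 with the block and 1444 with both. The small counts of WT SD to RS (3), *Mef2c* f/f CS to SD (5), Mef2c-cKO CS to SD (3) and the interaction of the latter pair (1) reached 54, 467, 25 and 59 with DESeq2, and *Mef2c* f/f CS to SD 153 with the correction and 275 with block and correction. Under the other alternatives that keep all libraries these 4 counts were 0 to 13. From *Mef2c* f/f to Mef2c-cKO in CS, 973 became 2095 with DESeq2 and 2185 with all groups in 1 fit, and in SD 1927 became 1024 with all groups. The interaction of *Mef2c* f/f minus WT called 1983, and 3426 with CPM as deposited, 1142 without a filter and 234 with the correction. CPM as deposited moved the median of all genes to 0.30 from WT CS to SD and to 0.20 from CS to RS, with 6106 of 6907 calls higher in the former, against 3183 of 5826. It gave 882 of 1228 calls higher from *Mef2c* f/f to Mef2c-cKO in CS against 402 of 973, 1694 of 2186 in SD against 1162 of 1927 (704 of 1431 with quantile normalization), and 507 of 3426 for the interaction of *Mef2c* f/f minus WT against 1225 of 1983. The causes were not tested.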
